A study of Caenorhabditis elegans with 3 samples.

Results

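The cytoplasmic ribosomal protein genes of the nematode Caenorhabditis elegans were examined for binding of EGL-27 in first-stage (L1) larvae. They were taken as the protein-coding genes of the Ensembl annotation whose names start with rpl- or rps- followed by a digit. This rule found 78 of 19973 protein-coding genes, of which 47 encode proteins of the large subunit (rpl) and 31 proteins of the small subunit (rps). The chromatin immunoprecipitation sequencing (ChIP-seq) data came from 3 biological replicates of whole larvae. All carry the mutation unc-119(ed3) on chromosome III and the transgene wgIs177, from which the animals stably express EGL-27 with a C-terminal GFP-FLAG tag (strain OP177). The 3 replicates form 1 group from this 1 transgenic line, with no second condition, and the peak lists rest on a control alignment that they share. The comparisons are therefore between genes within each replicate, and a whole larva gives 1 signal for all its tissues.

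The cytoplasmic ribosome joins a large subunit, which forms peptide bonds, to a small subunit, which reads the messenger RNA. Its proteins are made in near equal numbers, and most of their genes are among the most transcribed of a growing animal. EGL-27 has a zinc finger of the GATA type and resembles MTA proteins, which are subunits of the histone deacetylase complex NuRD. Many worm messenger RNAs are trans-spliced to a short leader near their 5' end, so an annotated start is often a splice acceptor and can lie downstream of the site where transcription begins.

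The sequences below lie 100 bp either side of the EGL-27 summit, the position of highest signal in a region, at 7 ribosomal protein promoters that passed the authors' irreproducible discovery rate (IDR) threshold. They are shown because short sequences recur among them that were rare at other EGL-27 promoter summits. Sequence is from RefSeq on build WBcel235 (ce11), read 5' to 3' on the strand of the gene, and the summit is base 101. Capitals mark matches, on either strand, to any of 6 recurring words of 8 letters that are listed with their counts further on. The windows are rpl-15 at chrIV:654822-655022 (minus strand), rps-28 at chrIV:1659171-1659371 (plus strand), rpl-11.2 at chrX:2242872-2243072 (minus strand), rpl-6 at chrIII:7207996-7208196 (plus strand), rps-1 at chrIII:4475570-4475770 (plus strand), rpl-23 at chrIII:5706328-5706528 (minus strand) and rpl-43 at chrII:14154452-14154652 (plus strand).
rpl-15: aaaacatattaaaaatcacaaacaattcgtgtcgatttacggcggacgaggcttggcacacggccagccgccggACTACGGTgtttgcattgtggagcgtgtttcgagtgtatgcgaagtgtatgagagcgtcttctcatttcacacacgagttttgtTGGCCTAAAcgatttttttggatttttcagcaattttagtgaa
rps-28: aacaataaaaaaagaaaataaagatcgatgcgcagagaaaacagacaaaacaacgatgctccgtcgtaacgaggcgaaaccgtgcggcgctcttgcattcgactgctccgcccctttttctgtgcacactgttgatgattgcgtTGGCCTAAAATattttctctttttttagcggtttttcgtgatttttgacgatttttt
rpl-11.2: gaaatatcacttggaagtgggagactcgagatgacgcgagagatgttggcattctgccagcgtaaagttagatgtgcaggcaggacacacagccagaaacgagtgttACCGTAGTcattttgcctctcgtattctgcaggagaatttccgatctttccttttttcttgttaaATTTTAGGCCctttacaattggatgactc
rpl-6: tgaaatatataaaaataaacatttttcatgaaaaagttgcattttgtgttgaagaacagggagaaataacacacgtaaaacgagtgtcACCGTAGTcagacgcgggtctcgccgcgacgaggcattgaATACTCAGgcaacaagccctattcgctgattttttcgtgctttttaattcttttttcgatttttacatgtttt
rps-1: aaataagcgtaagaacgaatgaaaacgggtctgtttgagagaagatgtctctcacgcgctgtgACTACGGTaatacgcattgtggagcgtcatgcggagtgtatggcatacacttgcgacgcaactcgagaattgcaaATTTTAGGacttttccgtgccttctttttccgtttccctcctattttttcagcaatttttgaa
rpl-23: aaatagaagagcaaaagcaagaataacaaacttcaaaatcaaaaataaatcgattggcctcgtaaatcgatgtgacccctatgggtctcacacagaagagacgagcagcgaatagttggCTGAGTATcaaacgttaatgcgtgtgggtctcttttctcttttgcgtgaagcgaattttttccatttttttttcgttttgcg
rpl-43: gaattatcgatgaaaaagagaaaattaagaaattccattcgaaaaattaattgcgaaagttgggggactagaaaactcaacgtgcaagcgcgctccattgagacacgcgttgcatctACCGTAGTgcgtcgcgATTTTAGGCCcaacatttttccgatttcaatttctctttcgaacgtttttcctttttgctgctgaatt

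Other promoters of the same genes with high signal held none of these words. The examples are the promoters with the highest and the next highest such signal, rpl-20 at chrIV:4749965-4750165 (minus strand) and rpl-35 at chrIII:7854608-7854808 (plus strand). In rps-28 overlapping words lie on the gene's strand, downstream of the summit, whereas the windows of rpl-20 and rpl-35 hold no capital.
rpl-20: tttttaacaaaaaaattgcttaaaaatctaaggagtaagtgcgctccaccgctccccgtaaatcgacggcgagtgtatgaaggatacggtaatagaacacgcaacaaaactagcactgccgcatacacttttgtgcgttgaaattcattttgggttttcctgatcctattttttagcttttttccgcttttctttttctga
rpl-35: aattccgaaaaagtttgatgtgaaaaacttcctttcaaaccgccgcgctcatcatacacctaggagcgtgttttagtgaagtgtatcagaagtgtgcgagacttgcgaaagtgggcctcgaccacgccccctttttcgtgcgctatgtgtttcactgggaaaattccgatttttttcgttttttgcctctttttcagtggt

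An IDR summit lay in the promoter window of 21 of the 78 ribosomal protein genes. The window began 1000 bp before the annotated start and ended 200 bp after it. This is 26.9% (exact 95% binomial interval 17.5 to 38.16), against 1.48% of the 19895 other protein-coding genes and 1.58% of all 19973. These intervals cover counting error over genes only. The 21 genes were 12 of the large subunit (25.5%, 13.94 to 40.35) and 9 of the small subunit (29%, 14.22 to 48.04), so the intervals of the subunits overlap over most of their range. They shared 20 summits, since 1 summit lay between the divergent genes rpl-36 and rps-14. All 20 lay between protein-coding genes, and 15 were also in the window of another gene. For 14 of the 20 the nearest start was that of a ribosomal protein gene. At the summits of rpl-20, rpl-43, rps-12, rps-19, rps-20 and rps-26 the start of another gene was nearer. Of the 21 genes, 12 kept a summit without replicate 1 and 12 without replicate 3, counting IDR summits within the top regions of both other replicates as defined further on; other genes then stood at 0.503% and 0.457%.

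The summit with the highest signal among these genes was that of rpl-20, with a signal of 95.7 over the 3 replicates together (rank 10). It lay 287 bp from the start of rpl-20 and 175 bp from that of Y17G9B.5, so it cannot be assigned to rpl-20 alone. Signal is the deposited signal value of a region. The authors' scale is not stated and differs between lists, so values are compared within a list only. The rpl-20 regions had signals of 37.0, 28.4 and 29.3 in replicates 1, 2 and 3, where they ranked 6, 43 and 30. The rpl-15 summit (pooled signal 92.9) ranked 24, 11 and 53 in those replicates. Both genes were thus near the top in each replicate, although their order differed. The summits of rpl-35 (84.5) and rpl-3 (84.3) followed; yeast Rpl35 lies beside the exit of the peptide tunnel and yeast Rpl3 close to the peptidyl transferase centre. The rpl-35 regions ranked 40, 28 and 39 in replicates 1, 2 and 3, and the rpl-3 regions 79, 38 and 16.

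Among small subunit genes, rps-12 was highest with a pooled signal of 72.9 and ranks of 51, 97 and 71 in replicates 1, 2 and 3. The rps-12 summit lay 171 bp from the start of rps-12, 122 bp from that of ska-3 and 251 bp from a short noncoding RNA gene. After rps-12 came rps-28 (64.8), rps-20 (61.3), rps-1 (56.2) and rps-26 (44.2). In yeast, Rps1, Rps26 and Rps28 lie around the site where messenger RNA leaves the small subunit. The regions of rps-28, rps-20, rps-1 and rps-26 ranked between 47 and 429 in every replicate. In the large subunit, rpl-11.2 (64.2), whose yeast homologue binds 5S ribosomal RNA, and rpl-6 (62.4) ranked between 37 and 149 in every replicate. These 11 genes, from rpl-20 to rpl-6, each had a top region in all 3 replicates. Top regions are the highest of a replicate's list by signal, taken in the same number as the IDR list holds, which is these 20 summits and 504 others. They are 14.1% of the 78, and 66 other genes (0.332%) met the same rule. Where a region counted only for the nearest start, 7 of the 78 met it, and the share of other genes under that choice was not counted.

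The remaining 10 genes with an IDR summit each missed the top regions of at least 1 replicate. The rpl-12 summit (62.4), at the gene for a protein of the ribosomal stalk base, had signals of 14.1, 34.0 and 10.9 and ranked 184, 24 and 547 in replicates 1, 2 and 3. The rps-21 summit (43.1) ranked 121, 1395 and 214, and the shared summit of rpl-36 and rps-14 (41.3) ranked 700, 1092 and 190. For the summits of rps-21 and of rpl-36 with rps-14, replicate 2 gave the lowest place. The rpl-7A summit (38.3) ranked 569, 468 and 412, that of rps-22 (35.2) 2100, 161 and 792, and that of rpl-9 (33.1) 402, 2609 and 486. The rps-19 summit (34.8) was covered by no region of replicate 1, and ranked 1105 in replicate 2 and 64 in replicate 3. The rpl-23 summit (30.8) was covered by no region of replicate 2, and ranked 109 in replicate 1 and 467 in replicate 3. The rpl-43 summit (30.0) ranked 488, 6418 and 349.

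**Figure D1:**
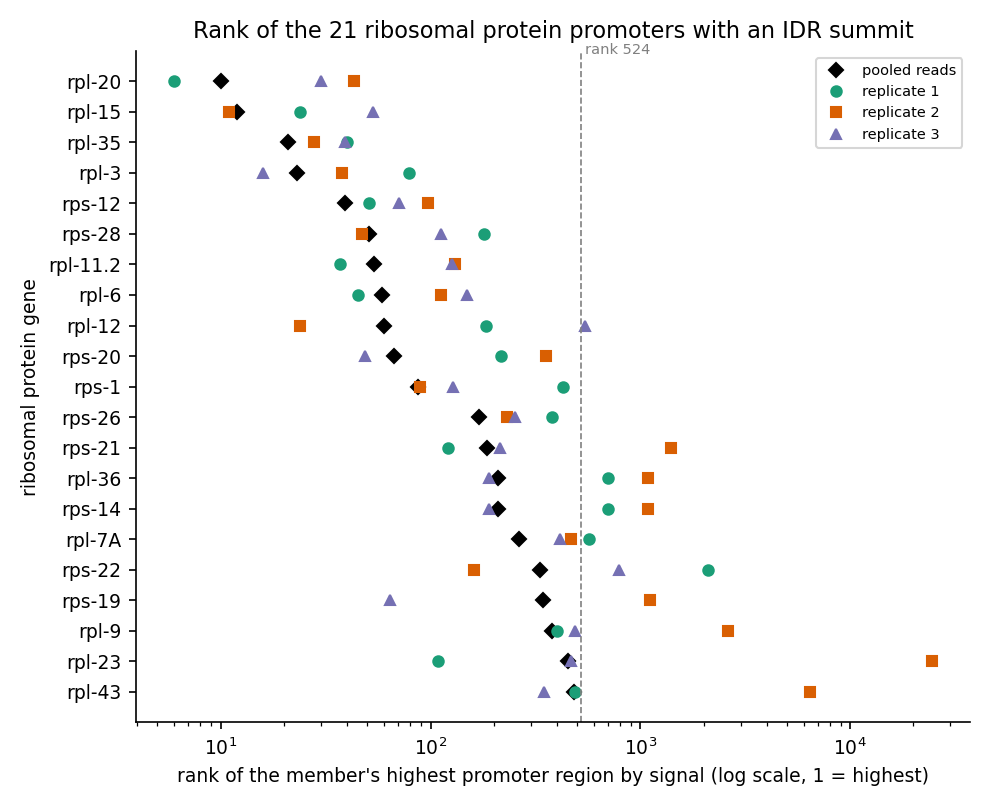
Rank of the highest promoter region of each of the 21 ribosomal protein genes with an IDR summit (rows, in order of pooled rank), on a log axis where 1 is the highest region of a list. Diamonds are the 3 replicates together and the other symbols are replicates 1, 2 and 3; the dashed line is the last rank of the IDR list, and 11 genes lie left of it in all 3 replicates. A missing symbol is a gene with no promoter region in that list, and the replicate 2 symbol of rpl-23 is a region that does not cover its IDR summit.

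As a set, these summits were high within the IDR list. Their median signal was 58.8 over 20 summits, against 37.5 over the 214 other IDR summits in promoter windows and 38.0 over all 504 others. Of the 20, 11 were among the 100 highest IDR summits and 14 were above the middle of the list. In replicates 1, 2 and 3 a region covered 19, 19 and 20 of the 20 IDR summits. The summit of that covering region was a median of 5, 8 and 18 bp from the IDR summit. The IDR summits rest on the reads of all 3 replicates together, so these offsets are partly built in and do not compare replicates with each other. The largest offset was 133 bp, at rps-19 in replicate 2. None of the 78 genes lay within 20 kb of egl-27, the locus that the transgene repeats.

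In each replicate on its own, the ribosomal protein genes were among the highest regions more often than other genes. A top region lay in the window of 20, 14 and 24 of the 78 ribosomal protein genes in replicates 1, 2 and 3 (25.6%, 17.9% and 30.8%). Of other genes, 1.22%, 1.3% and 1.38% had one, and of all genes 1.31%, 1.37% and 1.5%. Over the 3 replicates the ribosomal protein genes averaged 24.8% ± 6.45 and other genes 1.3% ± 0.0829 (SD, n = 3). The difference was 24.4, 16.6 and 29.4 percentage points in replicates 1, 2 and 3, with a mean of 23.5 ± 6.42, and the groups did not overlap. The exact two-sided sign-flip permutation test over replicates gave p = 0.25, the smallest that 3 replicates allow, so no such comparison here can pass a threshold of 0.05. The replicates share the control alignment, and p-values describe only the spread between them.

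Large and small subunit genes were not separated by this measure. A top region lay at 12, 8 and 13 of the 47 large subunit genes and at 8, 6 and 11 of the 31 small subunit genes in replicates 1, 2 and 3. The large subunit averaged 23.4% ± 5.63 and the small subunit 26.9% ± 8.12 (SD, n = 3). The difference, large minus small, was -0.275, -2.33 and -7.82 percentage points, with a mean of -3.48 ± 3.9 (exact two-sided sign-flip permutation p = 0.25). Its sign turned with 1 choice: where each region counted only for the nearest gene start, the mean was 2.33 percentage points. The difference is smaller than its spread, which does not show that the subunits are bound alike.

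The relaxed lists, which hold regions down to background, reached most ribosomal protein genes. The list of the 3 replicates together had a region in the window of 65 of the 78 (83.3%, 73.19 to 90.82), against 38.5% of other genes and 38.7% of all genes. It reached 37 of 47 large subunit genes (78.7%, 64.34 to 89.3) and 28 of 31 small subunit genes (90.3%, 74.25 to 97.96). In replicates 1, 2 and 3, 51, 52 and 60 of the 78 had a relaxed region (65.4%, 66.7% and 76.9%). All genes stood at 37.3%, 35.3% and 20.8% there, and the shorter list of replicate 3, with 13516 regions against 30000, gave the highest share of ribosomal protein genes and the lowest share of other genes (20.6%). The mean difference from other genes was 38.7 ± 15.4 percentage points (exact sign-flip permutation p = 0.25, n = 3). Between subunits it was 1.44, -17.8 and -11.5 percentage points, large minus small, in replicates 1, 2 and 3, so its sign differed between replicates (mean -9.31 ± 9.83, exact sign-flip permutation p = 0.5).

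**Figure D2:**
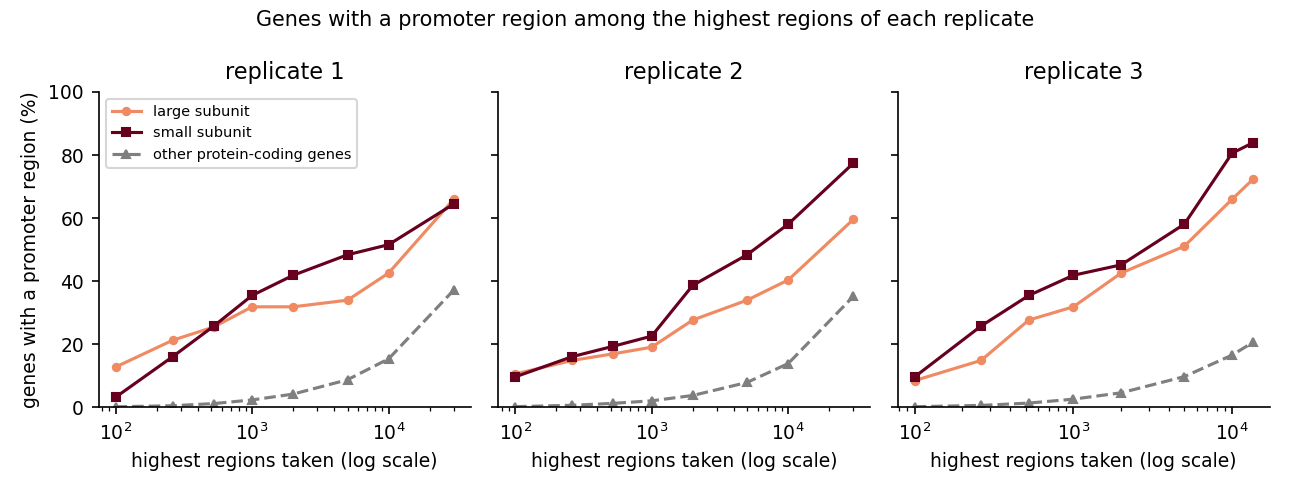
Percent of large subunit, small subunit and other protein-coding genes with a promoter region (vertical axis) when only the highest regions of a replicate are taken (horizontal axis, log scale, from the 100 highest to the whole list), 1 panel per replicate. In every panel both subunits lie above other genes at every number of regions; at the number of the IDR list the ribosomal protein genes stand at 25.6%, 17.9% and 30.8% in replicates 1, 2 and 3.

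Taking each gene's highest region, and placing genes without one lowest, the median over all 78 genes was a pooled signal of 17.7, a level that 4.59% of all protein-coding genes reached. It was 6.4 where a region counted only for the nearest start. That is near the floor of the pooled list, whose lowest signal is 5.6 and whose median region has 7.9. The share of all genes that reached 6.4 under that choice was not counted. With a region counted for every window it lay in, the median was 15.0 over the 47 large subunit genes and 19.2 over the 31 small subunit genes. The median other gene had no region. In replicates 1, 2 and 3 the median ribosomal protein gene stood at signals of 3.5, 5.6 and 4.1, levels that 20.5%, 17.3% and 8.63% of all genes reached. Below the IDR threshold the highest were rps-15 (pooled signal 28.3), rps-23 (27.4), rpl-1 (23.9), rpl-28 (23.6) and the shared region of rpl-24.1 and rps-10 (21.9). The IDR list ends at a signal of 28.9, so rps-15, at rank 551, lies just outside it and rpl-43, at rank 483, just inside. In the replicates rps-15 ranked 587, 14775 and 459 and rps-23 1481, 19188 and 420, so replicate 2 was the one in which both were far down. Among the 57 genes without an IDR summit, 9 had a top region in at least 1 replicate, and 5 (rpl-5, rpl-16, rpl-27, rpl-41.1 and rps-16) had no promoter region in any list. Of all 78 genes, 61.5% had no top region in any replicate, against 97.3% of other genes. No relaxed region in any replicate was found at 6.41% of the 78, which are those 5, against 38.8% of other genes.

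The summits lay in a narrow band upstream of the annotated start. Over the 21 genes with an IDR summit the median distance was 278 bp upstream, with quartiles of 235 and 354 bp and a range of 26 to 742 bp. Over the 294 other genes with an IDR summit the median was 289.5 bp, with quartiles of 158.2 and 576.2 bp. The medians are thus close and the spread is what differs. The 44 ribosomal protein genes with only a relaxed region showed the same band, with a median of 293.5 bp and quartiles of 246.5 and 371 bp. Among the top regions of replicates 1, 2 and 3, the quartiles for ribosomal protein genes were 266.2 and 411, 184.8 and 375.5, and 246.5 and 365.5 bp. For other genes they were 117 and 534.2, 154 and 558, and 163.5 and 594.5 bp.

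Counted in bins of 100 bp over every pooled region, ribosomal protein genes had 32.1 summits per 100 genes at 200 to 299 bp upstream, against 4.77 for other genes. At 300 to 399 bp they had 20.5 against 3.88, and at 100 to 199 bp 5.13 against 5.72. Large subunit summits lay a median of 323.5 bp upstream (12 genes) and small subunit summits 250 bp (9 genes), and over all genes with a pooled region the medians were 311 bp (37 genes) and 264 bp (28 genes). In replicates 1, 2 and 3 the medians over relaxed regions were 329, 313.5 and 315.5 bp for the large subunit and 259.5, 265.5 and 272 bp for the small subunit, so the large subunit was farther from the start in each of them. Among the top regions that order held in replicates 2 and 3 (medians of 315.5 and 324 bp for the large subunit, each farther than that of the small subunit) and not in replicate 1 (305.5 against 339.5 bp). The summit nearest a start was that of rpl-12, at 26 bp, and the most distant that of rpl-43, at 742 bp.

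**Figure D3:**
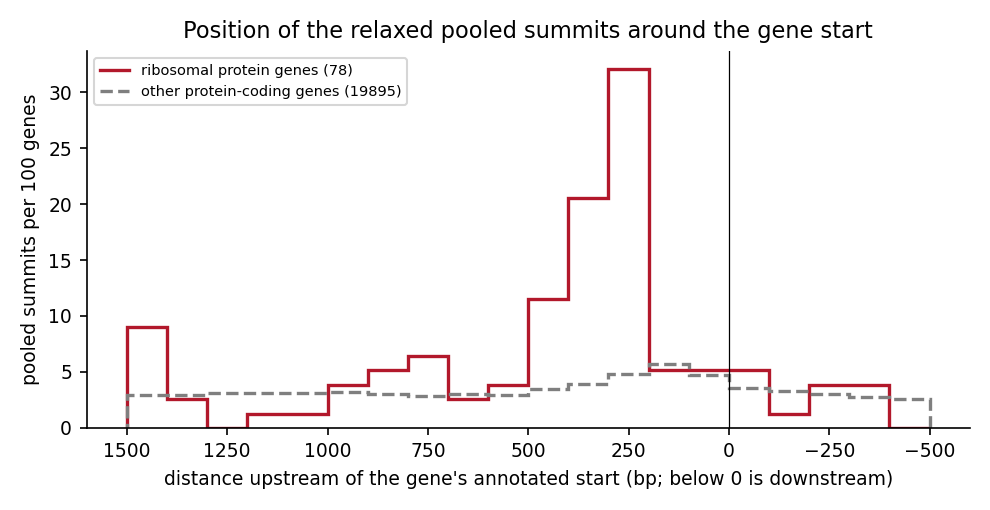
Number of pooled relaxed summits per 100 genes (vertical axis) by distance from the annotated gene start in bins of 100 bp (horizontal axis, upstream to the left, values below 0 downstream). The solid line is the 78 ribosomal protein genes, which reach 32.1 summits per 100 genes at 200 to 299 bp; the dashed line is the 19895 other protein-coding genes, at 4.77 in that bin.

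The repeat GAGAGA, searched on both strands, was common at EGL-27 summits in general and uncommon at those of ribosomal protein genes. Within 100 bp of the summit it was present at 3 of the 20 summits (15%, 3.21 to 37.89), those of rpl-3, rpl-11.2 and rps-1, against 113 of the 214 other promoter summits (52.8%, 45.88 to 59.65). Within 50 bp it was present at 0 of 20 (0 to 16.84), against 34.1% of the other promoter summits. At the top regions of replicates 1, 2 and 3 it was found at 3 of 20, 3 of 14 and 3 of 22 ribosomal protein summits (15%, 21.4% and 13.6%) and at 43.8%, 49.8% and 55.9% of other promoter summits. The mean was 16.7% ± 4.16 against 49.8% ± 6.1 (SD, n = 3), a difference of -33.1 ± 7.95 percentage points with no overlap between the groups (exact sign-flip permutation p = 0.25). The 500 bp upstream of the start held the repeat at 5 of 21 ribosomal protein genes with an IDR summit (23.8%), at 25 of 57 without one (43.9%) and at 30% of all protein-coding genes.

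GC content, which could move with such counts, was lower at the ribosomal protein summits: it was 41.9% ± 3.0 over the 20 summits and 47.3% ± 6.8 over the 214 others (SD over summits), and its part in the counts was not tested. GATA sites (GATA with A or T before it and A or G after it, either strand) lay within 100 bp of 2 of 20 ribosomal protein summits (10%, 1.23 to 31.7) and of 27.6% of other promoter summits. The E-box CACGTG lay at 0 of 20 (0 to 16.84) and at 24 of the 214 others. The splice acceptor sequence TTTCAG lay within 100 bp of 6 of 20 (30%, 11.89 to 54.28) against 24 of 214, but within 50 bp of 1 of 20 (5%) against 11 of 214 (5.14%), so that difference depended on the window. Within 50 bp GATA sites lay at 1 of 20 (5%) against 12.6%, and CACGTG at 0 of 20 against 7.01%. Of the other motifs searched, CCGCCC lay within 100 bp of 10% of the 20 summits against 13.6%, TATAAA of 10% against 7.94%, and TGATAA of 0% against 6.54%. AACTTC lay within 100 bp of 5 of 20 (25%) against 8.88%, but within 50 bp of 1 of 20 (5%) against 5.14%. In the 500 bp upstream of the start TTTCAG was present at 67 of 78 ribosomal protein genes (85.9%) and at 65.4% of all genes. A match says only that these letters are in the window.

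Words of 8 letters were then counted within 100 bp of the summits, both strands together. Words present at 5 or more of the 20 ribosomal protein summits and at 2% or fewer of the 214 other promoter summits were kept, which left 6. These counts chose the words and are a description. GGCCTAAA was at 6 of 20 summits (rpl-3, rpl-7A, rpl-11.2, rpl-15, rpl-43 and rps-28) and at 0 of 214. The words TGGCCTAA and GCCTAAAA, each GGCCTAAA shifted by 1 letter, were at 5 of 20 each. So was ATTTTAGG, which overlaps them when read on the opposite strand. ATACTCAG was at 6 of 20 (rpl-6, rpl-7A, rpl-9, rpl-23, rps-20 and rps-22) and at 1 of 214. ACCGTAGT was at 5 of 20 (rpl-6, rpl-11.2, rpl-15, rpl-43 and rps-1) and at 3 of 214 (1.4%). At least 1 of the words was at 13 of 20 summits (65%) and at 4 of 214 (1.87%).

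Ribosomal protein genes without an IDR summit, which had no part in that choice, held the same words. Of the 42 pooled summits in their windows taken as the highest of each gene, 20 (47.6%) had at least 1 word within 100 bp, against 224 of 6457 summits (3.47%) that were the highest of other genes and outside the IDR list. GGCCTAAA was at 9 of 42 (21.4%) against 0.465%, ATACTCAG at 5 of 42 (11.9%) against 0.294%, and ACCGTAGT at 4 of 42 (9.52%) against 0.635%. The 9 with GGCCTAAA were rpl-1, rpl-10, rpl-21, rpl-26, rpl-28, rps-4, rps-6, rps-8 and rps-9. Some of these summits rank low. The pooled region of rps-6, a gene named after its values were seen and whose mammalian homologue is phosphorylated in the TOR pathway, has a signal of 6.2 and rank 24961. In the 500 bp upstream of the start the words were present at 15 of 21 genes with an IDR summit (71.4%), 27 of 44 with a relaxed region only (61.4%) and 6 of 13 with no pooled region (46.2%). The words were chosen at the summits of those 21 genes, so the first share follows largely from the choice and cannot be compared with the other shares. Among the 19895 other genes 9.2% had one there.

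At the top regions of replicates 1, 2 and 3, at least 1 word was at 13 of 20, 9 of 14 and 15 of 22 ribosomal protein summits (65%, 64.3% and 68.2%). At other promoter summits it was at 3.12%, 0.488% and 2.97%. The mean was 65.8% ± 2.07 against 2.19% ± 1.48 (SD, n = 3). The words were chosen on summits from the same reads, so this shows their spread between replicates and is no test of them. Positions of GGCCTAAA were then measured. All 6 copies at the IDR summits lay on the gene's side of the summit, 38 to 77 bp from it with a median of 59 bp. At the summits of genes with only a relaxed region, 8 of 10 copies lay on that side, with a median over all 10 of 47.5 bp. ATACTCAG lay on the gene's side in 5 of 6 copies in each set, counting a summit shared by divergent genes for each of them, with medians of 20.5 and 26 bp. ACCGTAGT lay on the gene's side in 2 of 5 copies at IDR summits (median -9 bp) and in 3 of 4 at summits of genes with only a relaxed region (median 31.5 bp). The 6 copies of GGCCTAAA at IDR summits lay 4 on the gene's strand and 2 on the opposite strand, so both orientations occurred.

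**Figure D4:**
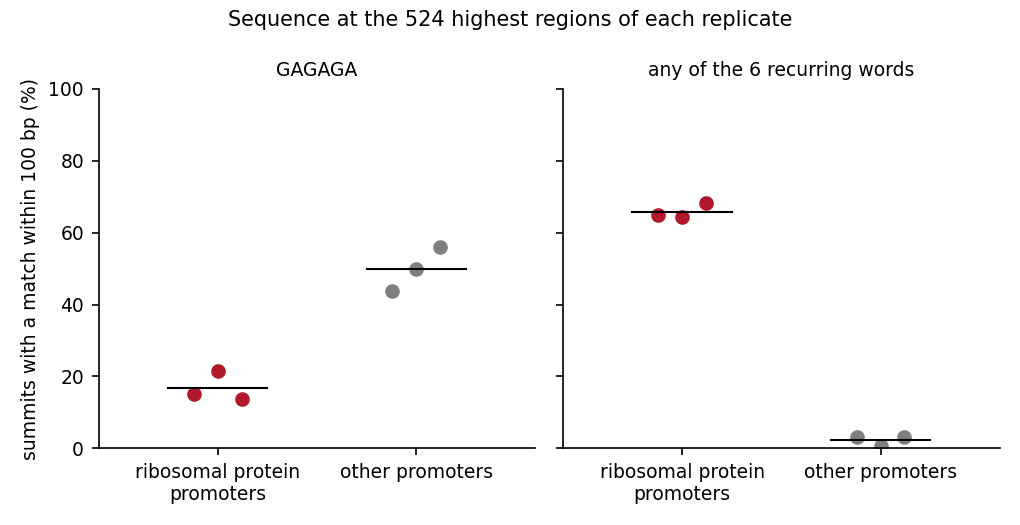
Percent of summits with GAGAGA (left panel) and with any of the 6 recurring words (right panel) within 100 bp, at the top regions of each replicate. Each point is 1 replicate and the line is their mean; ribosomal protein promoters average 16.7% for GAGAGA and 65.8% for the words, and other promoters 49.8% and 2.19%. The words were chosen on summits that share reads with these lists.

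Of 3 pairs of paralogs, rpl-11 and rpl-41 had a pooled region at 1 copy only and rpl-25 at neither. The proteins of rpl-11.1 and rpl-11.2 are identical at 91.3% of aligned positions (196 residues each). The rpl-11.2 promoter had signals of 21.7, 21.3 and 19.6 in replicates 1, 2 and 3, whereas rpl-11.1 had no pooled region and a single relaxed region, of rank 24982 in replicate 1. Encoding the same 22 residues, rpl-41.2 had a pooled region of rank 1676 (signal 17.9, 238 bp upstream) and its neighbour rpl-41.1 none in any list. Neither rpl-25.1 nor rpl-25.2 (70.1% identity) had a pooled region. How the authors treated reads that fit more than 1 copy is not known here.

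The other pairs were matched by name, and their proteins are less alike. Whether they are related was not tested. The proteins of rpl-24.1 and rpl-24.2 are 25.4% identical, and their promoters had pooled signals of 21.9 and 8.4. Those of rpl-7 and rpl-7A are 19.4% identical, with 17.4 and 38.3, and those of rpl-36 and rpl-36.A 18.8% identical, with 41.3 and 7.3. Of these 6 genes, rpl-7A and rpl-36 had an IDR summit.

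Regions were also counted by the layout of the neighbouring genes. Of the 53 genes whose upstream neighbour is divergent, 16 had an IDR summit (30.2%) and 47 a pooled region (88.7%), against 2.1% and 41.9% of the other protein-coding genes with that layout. Of the 17 with an upstream neighbour on the same strand more than 500 bp away, 5 had an IDR summit (29.4%) and 15 a pooled region (88.2%), against 0.993% and 36.7% of other genes. Of the 8 whose same-strand neighbour ends within 500 bp, 3 had a pooled region (37.5%), close to the 34.1% of other genes with that layout; those without were rpl-16, rpl-19, rpl-25.1, rpl-27 and rps-16. None of the 8 had an IDR summit, against 0.913% of other genes, and 8 genes are too few to show a difference from that share. Regions were also shared by divergent ribosomal protein genes: rpl-36 with rps-14 (413 and 250 bp from their starts), rpl-24.1 with rps-10 (rank 1018) and rpl-39 with rps-30 (rank 1410). Yeast Rpl39 lies in the peptide tunnel. In each of these pairs the signal cannot be assigned to 1 of the genes.

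Chromosome III held 11 of the 21 genes with an IDR summit. That is 11 of its 18 ribosomal protein genes (61.1%, 35.75 to 82.7), against 1.98% of other genes on that chromosome. Chromosome IV had 5 of 17 (29.4%, other genes 1.41%), chromosome I 3 of 23 (13%, other genes 2.14%) and chromosome II 1 of 10 (other genes 1.4%). Chromosome V had 0 of 8 (0 to 36.94, other genes 0.742%) and the X chromosome 1 of 2 (other genes 1.83%). The top regions of replicates 1, 2 and 3 gave 8, 6 and 10 of the 18 genes on chromosome III and 6, 5 and 5 of the 17 on chromosome IV. They gave 2, 2 and 5 of the 23 on chromosome I, 2, 0 and 1 of the 10 on chromosome II and 1, 0 and 2 of the 8 on chromosome V. Chromosomes III and IV thus lay closer together in replicates 1 and 2 than in the IDR list. Over all chromosomes the top regions reached 1.22%, 1.3% and 1.38% of other genes. On the other chromosomes together 10 of 60 genes had an IDR summit, against 1.4% of other protein-coding genes there. The unc-119 mutation that all animals carry is also on chromosome III, and its part in the counts was not tested.

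**Figure D5:**
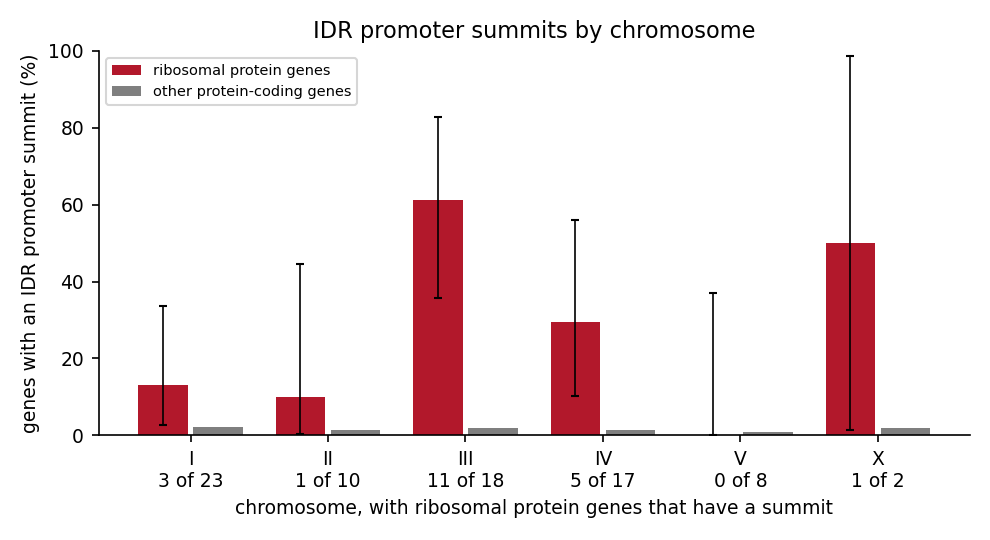
Percent of genes with an IDR promoter summit on each chromosome, for ribosomal protein genes (left bar, with exact 95% binomial interval) and other protein-coding genes (right bar); the labels give the ribosomal protein genes with a summit and their number. Chromosome III stands highest among chromosomes with more than 2 of these genes, at 61.1%, and its interval, 35.75 to 82.7, overlaps that of chromosome IV.

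Among other genes of translation, the mitochondrial and factor genes had lower shares with an IDR summit. The 6 further cytoplasmic ribosomal protein genes that the name rule leaves out (rla-0, rla-1 and rla-2 of the stalk, rack-1, ubl-1 and ubq-2) had 0 IDR summits. Their interval, 0 to 45.93, holds all of that of the 78 genes, so 6 genes cannot show a lower share. The highest was ubl-1, which encodes a ubiquitin-like fusion protein, with a pooled signal of 25.9 (rank 671). Among 70 mitochondrial ribosomal protein genes 4 had one (5.71%, 1.58 to 13.99): mrpl-23 (46.0), mrps-7 (37.6), mrpl-55 (35.4) and mrps-21 (30.8). Among 40 initiation and elongation factor genes 4 had one (10%, 2.79 to 23.66): iff-2 (86.5), eef-1A.2 (52.2), eef-2 (51.7) and eif-3.C (37.5). The interval of the factors overlaps that of the 78 genes, 17.5 to 38.16, and that of the mitochondrial genes does not. These intervals cover counting error over genes only and are no test between groups. The summits of mrpl-23 and mrps-21 lay 990 and 970 bp upstream, near the far edge of the window, and that of mrps-21 was also in the windows of other genes. In the pooled list 28 mitochondrial genes (40%) and 26 factor genes (65%) had a region, against 65 of the 78 (83.3%). In replicates 1, 2 and 3 the top regions reached 4, 2 and 1 of the mitochondrial genes and 3, 5 and 3 of the factor genes.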

How the data were processed

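EGL-27 ChIP-seq regions of 3 L1 larval replicates were used on build ce11. The authors made 1 relaxed list per replicate, 1 for the replicates together and 1 thresholded by IDR; aligner and caller: not given in the sources used here. Regions were ranked within a list by the deposited signal value and placed by the deposited summit offset. The authors' deposited −log10 q-value was not used. The IDR list is the 524 highest pooled regions, and top regions are the 524 highest of a replicate. Depth is unknown. Genes came from Ensembl release 115 (WBcel235) and sequence from RefSeq. A gene counted if any summit lay in its window. Named genes were all with an IDR summit, pairs by name, the 5 highest without one, and related genes with one. Members, lists, motifs and alternatives were chosen with earlier results of these data known, and the recurring words, distance bins, layout and chromosome counts after seeing these. Alternatives were other windows, numbers of regions, assignment rules, positions and sets without a replicate. One position was the midpoint of the region, which lay within 1 bp of the summit for 97.9% of IDR and 99.96% of pooled regions. That alternative could therefore hardly change a result. Assignment was tested on simulated data. Software was Python 3.11.15 with Biopython 1.88, matplotlib 3.10.9, numpy 2.4.6, pandas 2.3.3 and scipy 1.17.1.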

Additional observations from a re-analysis of the deposited data

How the results depend on the processing

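The count of 21 ribosomal protein genes with an IDR promoter summit was 14 where each summit counted only for the nearest start, against 1.09% of other genes. It was 12 to 15 without 1 replicate, against 0.427% to 0.503% of other genes. Without 1 replicate means IDR summits within the top regions of both other replicates. The exact lists without a replicate could not be called again. The count was 10 of 60 without chromosome III, against 1.4% of other genes, an alternative chosen after seeing the data. It was 15 to 21 under the other choices run, where other genes stood at 0.643% to 2.11%. Of the 21 genes, 7 kept their summit under every one of these that applied to them (rpl-3, rpl-6, rpl-11.2, rpl-15, rpl-35, rps-1 and rps-28). The median distance was 301 to 316.5 bp without 1 replicate and 316.5 bp without chromosome III, against 278 bp. With 1 start per region, genes with a top region in every replicate were 7 against 11, and the median best signal was 6.4 against 17.7. The mean difference from other genes in the share with a top region was then 14.4 percentage points, against 23.5. Under that choice large minus small was 2.33 percentage points in the replicates, where it was -3.48, and 3.02 in the IDR list, where it was -3.5; without summits near short noncoding RNA genes it was 0.824. GAGAGA within 50 bp was at 0% of the summits, against 15% within 100 bp. The causes were not tested. Without 1 replicate, genes among the highest regions in every remaining replicate were 12 to 15, the difference from other genes 20.5 to 26.9 percentage points, large minus small -5.08 to -1.3, and GAGAGA 20% to 25%. No paired analysis was possible because the 3 replicates form 1 group. Read depth is unknown, so a missing region can be lack of depth.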
